A study of Homo sapiens with 33 samples.

Results

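The libraries of the MITF variants N278D and Y253A were compared directly, by the peaks each list ranked highest and the genes nearest to them. MITF was followed by CUT&Tag in the melanoma line UACC-257, an established human line, with an antibody to the HA tag directing a transposase to cut the DNA around its target. All cells carried MITF knockdown and had received doxycycline, per the labels, so these are shared by every group. The members were the 3 N278D and 3 Y253A libraries, chosen by the variant in the sample titles, which is 6 of the 33 libraries of the series. The groups N278D and Y253A are named in the titles for 1 amino acid change each, and the 3 WT and 3 Empty libraries were used only to place them. Libraries titled E260A, Q261A, A264C, K243A, G244E, rep217A and rep263A served the same end, and the labels do not explain these names further. The labels do not say whether replicates came from separate cultures, and the p-values therefore cover only library-to-library spread, which may be technical.

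MITF is a basic helix-loop-helix leucine zipper factor of the melanocyte lineage and binds as a dimer to E-boxes, most tightly to the palindrome CACGTG and to the related CATGTG of pigment gene promoters. It is best known for switching on pigment enzymes such as TYR and melanosome proteins such as PMEL. With its relatives TFEB and TFE3 it shares many lysosomal targets.

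Promoters of genes described below show these letters. Stretches of 100 bases from the 250 bases before a RefSeq gene start (build GRCh38.p14) are printed 5′ to 3′, with the E-box CACGTG and the related CATGTG, read on either strand, in capitals. The first set lies under regions called in all 6 libraries that did not pass the test between the variants, and was chosen after the values were seen. It holds NAPA at chr19:47515214-47515313 (minus strand), RRAGC at chr1:38859805-38859904 (minus strand), BIRC7 at chr20:63235798-63235897 (plus strand), TYR at chr11:89177770-89177869 (plus strand), GPNMB at chr7:23246636-23246735 (plus strand) and LAMP1 at chr13:113297027-113297126 (plus strand).
NAPA: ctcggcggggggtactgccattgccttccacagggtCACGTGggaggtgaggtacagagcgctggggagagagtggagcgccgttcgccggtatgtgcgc
RRAGC: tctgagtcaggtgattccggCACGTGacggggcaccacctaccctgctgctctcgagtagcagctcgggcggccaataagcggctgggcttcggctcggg
BIRC7: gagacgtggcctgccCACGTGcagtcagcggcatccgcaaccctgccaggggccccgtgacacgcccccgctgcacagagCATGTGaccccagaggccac
TYR: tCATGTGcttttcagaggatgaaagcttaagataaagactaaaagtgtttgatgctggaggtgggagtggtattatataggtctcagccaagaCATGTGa
GPNMB: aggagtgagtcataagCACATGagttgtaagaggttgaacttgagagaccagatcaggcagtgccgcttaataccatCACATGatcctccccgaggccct
LAMP1: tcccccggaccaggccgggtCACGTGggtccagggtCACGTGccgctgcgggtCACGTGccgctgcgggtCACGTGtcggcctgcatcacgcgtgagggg
The second set, also chosen after the values were seen, lies under regions that separated the variants, with GADD45B at chr19:2475939-2476038 (plus strand) and TBCEL at chr11:121024002-121024101 (plus strand) ranked higher in N278D, and RETREG2 at chr2:219178173-219178272 (plus strand) and CCL18 at chr17:36064099-36064198 (plus strand) ranked higher in Y253A. Each holds a marked E-box, so the set is not typical of such promoters. CACGTG stood in 5 of 39 promoters with a summit called higher in N278D and in 1 of 21 called higher in Y253A. CATGTG stood in 3 of the 39 and 3 of the 21.
GADD45B: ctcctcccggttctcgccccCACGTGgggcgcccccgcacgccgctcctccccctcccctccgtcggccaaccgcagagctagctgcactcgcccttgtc
TBCEL: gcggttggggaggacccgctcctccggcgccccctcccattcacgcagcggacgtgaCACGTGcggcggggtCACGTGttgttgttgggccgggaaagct
RETREG2: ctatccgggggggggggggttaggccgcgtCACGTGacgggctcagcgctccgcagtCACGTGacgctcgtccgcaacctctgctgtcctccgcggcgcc
CCL18: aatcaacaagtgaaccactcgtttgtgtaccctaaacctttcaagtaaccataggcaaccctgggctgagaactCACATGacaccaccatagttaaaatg

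The pair was chosen for similar depth, so length and depth of the lists are given as a description. N278D lists held 167770, 179360 and 194416 peaks, against 197401, 184731 and 178935 in Y253A lists. The log2 ratio of means was -0.05. Peaks with a −log10 q of at least 5 numbered 112463 ± 5950 in N278D and 112626 ± 6115 in Y253A (SD, n = 3 each). Relative depth, recovered as the commonest background pileup of a list, was 0.88, 0.99 and 1.12 in N278D and 1.16, 1.03 and 0.99 in Y253A. WT libraries had 1.2, 1.08 and 1.18, and Empty libraries at most 0.03. Of the listed peaks, the 10000 of highest −log10 q (here the strongest peaks, with several summits of 1 interval counted once) lay within 1000 bp of a gene end in 29.3% ± 0.54 of cases in N278D and 29.3% ± 1.15 in Y253A (SD, n = 3 each; exact permutation test, two-sided, p = 1, where 0.1 is the smallest p that 3 libraries against 3 allow).

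What the variants shared was nearly all of their strong regions. Of 8116 regions strong in all 3 N278D libraries, 100% had a peak in all 3 Y253A lists, and 86.9% were also among the strongest of all 3 Y253A libraries. Of 8318 regions strong in all 3 Y253A libraries, 100% had a peak in all 3 N278D lists, and 84.7% were among the strongest of all 3. Only 3.33% and 3.41% of these regions were among the strongest of no library of the other variant. So 0 regions were strong throughout one variant and missing from all lists of the other. Weaker regions did split so, with 2189 called in all 3 N278D and no Y253A lists (median of their best −log10 q 5.37, highest 39.9) and 1733 called in all 3 Y253A and no N278D lists (median 4.63, highest 39.6). These are outside the rank test below. Both counts are out of 247643 merged regions, of which 18173 were called in exactly 3 lists. Of those 18173, 21.6% split by variant. WT lists held 100% of the strong N278D regions and 99.99% of the strong Y253A regions. All 3 Empty lists held 45.2% of the strong N278D regions and 42.7% of the strong Y253A regions.

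Libraries of the same variant overlapped more than libraries of different variants. Between a pair of libraries of the same variant, 86.1% to 89.0% of the strongest peaks overlapped (mean 87.9%, 6 pairs). Between N278D and Y253A it was 83.2% to 84.7% (mean 84.1%, 9 pairs), and these ranges did not overlap. The difference of the means was 3.76 percentage points, with a one-sided exact permutation p of 0.1, the smallest this test allows. N278D with WT averaged 76.8% and Y253A with WT 76.7% (9 pairs each), below every pair of N278D with Y253A. Among the strongest 1000 peaks, same-variant pairs gave 79.0% to 85.4% (mean 82.9%) and pairs across variants 73.6% to 79.8% (mean 77.2%), and these ranges overlapped.

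**Figure D1:**
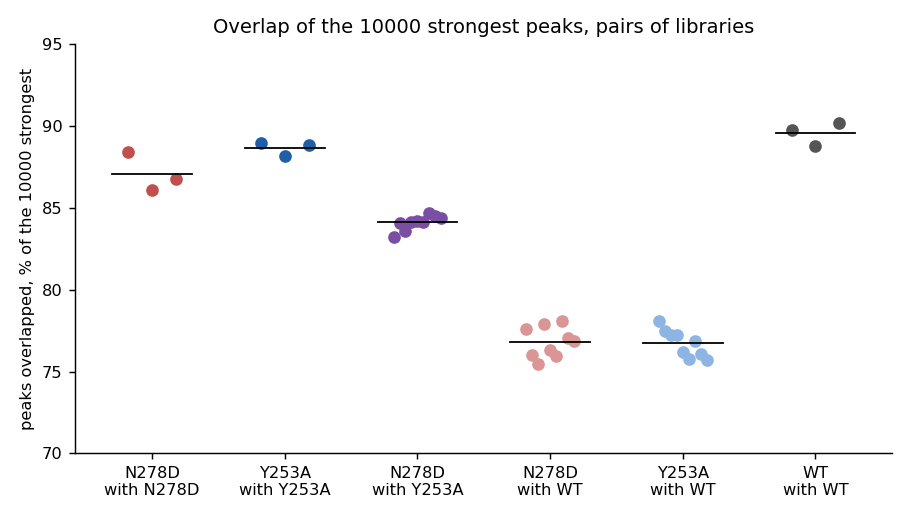
Share of the 10000 strongest peaks overlapped by at least 1 bp (y axis, %, starting at 70) for each pair of libraries (points), with the mean of each kind of pair (lines). Pairs of N278D with Y253A lie between 83.2% and 84.7%, below the same-variant pairs and above the pairs with WT.

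Most nearest genes were shared. The strongest 1000 peaks named 674 protein-coding genes in all 3 N278D libraries and 690 in all 3 Y253A libraries, of which 560 were the same, 83.1% of the N278D genes and 81.2% of the Y253A genes. Of 1262 genes named in any of these libraries, 33 were named in all N278D and no Y253A libraries. Among them were FGFR1, a receptor tyrosine kinase, SLC7A5, an amino acid transporter, and CD9, a tetraspanin. There were 36 named in all Y253A and no N278D libraries, among them APOE, a lipid carrier, TFEB, and MET, the receptor for hepatocyte growth factor. A different region, at an end of MET, went the other way without passing the test below, with ranks of 2157, 3391 and 4276 in N278D and 4652, 4708 and 6429 in Y253A (score difference 0.24, adjusted p = 0.131, limma). These examples were chosen after the lists were seen. Over the strongest 10000 peaks, 5183 genes in N278D and 5295 in Y253A shared 4753, which is 91.7% of the N278D genes and 89.8% of the Y253A genes.

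The 10 regions of best mean rank over the 6 libraries ranked 30 or better in every one. Ranks here are places by −log10 q among the 82807 regions called in all 6 libraries, of 247643 merged regions, with 1 the strongest. The top region lay 115 bp from PGK1, a glycolytic enzyme, at chrX:78103742-78104378, and ranked 1 in all N278D and all Y253A libraries. Its −log10 q was 1777, 1858 and 1796 in N278D and 1676, 1582 and 1495 in Y253A, and Empty libraries had 54.9, 45.4 and 34.5 there. The Empty lists are far shallower, and their highest values anywhere were 56.4, 45.4 and 38.5. The region thus stood at or near the top of the Empty lists too.

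Inside TIMP2, an inhibitor of matrix metalloproteinases, the region ranked 4, 2 and 2 in N278D and 4, 3 and 2 in Y253A. The region at NAPA, a recycler of SNARE complexes whose promoter is printed above, ranked 5, 7 and 9 in N278D and 8, 8 and 7 in Y253A. Inside BCL2L1, which encodes the survival protein BCL-xL, the ranks were 8, 10 and 30 in N278D and 7, 9 and 8 in Y253A. The groups overlapped at all 3. Others lay nearest to TMEM51, SNX5, ANKRD10, GNA13 and EXTL1. None of the 10 passed the test below (adjusted p 0.0874 to 1), although ranks stood apart at EXTL1, with 7, 4 and 6 in N278D and 22, 23 and 15 in Y253A, and at ANKRD10, with 9, 8 and 7 in N278D and 5, 6 and 5 in Y253A. All 10 had a peak in every WT list and in at least 1 Empty list.

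None of the 16 genes of the pigmentation list passed the test between the variants, where 1.37% of all 15322 genes tested at their best region were higher in N278D and 1.34% in Y253A. At TYR, the rate-limiting enzyme of melanin synthesis, the promoter region chr11:89177638-89178256 ranked 6180, 5834 and 12011 in N278D and 3930, 4983 and 5629 in Y253A. These ranks did not overlap and were better in Y253A, but the difference did not pass (adjusted p = 0.157, limma). For PMEL, the fibril protein of melanosomes, the best-ranked region within 5000 bp of a gene end lies inside its neighbour CDK2. It ranked 314, 79 and 289 in N278D and 83, 134 and 100 in Y253A.

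Inside MLANA, a melanosome protein, the ranks were 1486, 2117 and 2793 in N278D and 1254, 1762 and 2242 in Y253A. At GPNMB, a melanosome glycoprotein, they were 2998, 2751 and 3767 in N278D and 5737, 3403 and 4015 in Y253A. At BIRC7, an inhibitor of apoptosis, they were 733, 393 and 695 in N278D and 800, 1072 and 461 in Y253A. For RRAGC, a GTPase that signals amino acids to the lysosome, they were 373, 361 and 462 in N278D and 466, 348 and 317 in Y253A. Ranks overlapped at MLANA, GPNMB, BIRC7 and RRAGC.

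DCT and TYRP1, enzymes of melanin synthesis, had weaker regions near a gene end, with mean ranks of 30634 and 34828 in N278D and 30573 and 36796 in Y253A. Mean ranks at TRPM1, a cation channel, were 1630 in N278D and 1114 in Y253A. At IRF4, a pigmentation regulator, they were 4155 in N278D and 2923 in Y253A, and for SOX10, a lineage factor, 12590 in N278D and 13835 in Y253A in a region inside POLR2F. None of these passed (adjusted p 0.351 to 0.994).

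Across regions, a small share passed a test between the variants. With 3 libraries against 3, regions that did not pass may still differ. Each region's rank was turned into a normal score, and scores were compared with limma (variance trend on, Benjamini-Hochberg adjustment, threshold 0.05). Of the 82807 regions 5313 passed (6.42%), 2717 higher in N278D (3.28%) and 2596 higher in Y253A (3.14%). The variance trend was not in the plan, and without it 0 regions passed, with a lowest adjusted p of 0.0597 and 14702 regions at an unadjusted p under 0.05, against 17103 with it. Ranked by fold enrichment, 206 passed, and all 206 were among the 5313 with the same direction. Leaving out 1 library gave 3041 to 4845, the lowest without Y253A replicate 1, and counts more than 1.5 times lower also came without N278D replicate 1 (3255) or 2 (3082) and without Y253A replicate 2 (3152) or 3 (3055).

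Ranks of the variants did not overlap at 2666 of the 2717 regions higher in N278D and 2536 of the 2596 higher in Y253A. Over all 82807 regions they did not overlap at 20367 (24.6%). The median absolute difference was 0.64 in regions higher in N278D and 0.66 in those higher in Y253A, against 0.20 over all regions. The calls were made on these same ranks, so these values describe the called regions and are no further evidence. Among the 1000 best regions by mean rank 35 were higher in N278D and 38 in Y253A, so 7.3% passed there. Of the regions higher in N278D 566 were strong in all N278D libraries, and of those higher in Y253A 562 were strong in all Y253A libraries.

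None of the 20 strong regions with the largest differences, 10 in each direction, lay within 1000 bp of a gene end. Genes named here are the nearest ones, and no link to their expression was measured. The region inside SEMA5A, a semaphorin of axon guidance, at chr5:9214674-9215639, had the largest difference of the named regions. It ranked 24186.5, 27053 and 19968.5 in N278D and 2095, 1514 and 1553 in Y253A, a score difference of -1.48 ± 0.10 (SE; adjusted p = 8.52e-11, limma). All N278D ranks were weaker than all Y253A ranks, as the rule that chose these regions required.

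A pair of Y253A-higher regions were strong in both variants. The region inside TFEB, the lysosomal relative of MITF, at chr6:41720006-41720877, ranked 4515, 2466 and 5763 in N278D and 294, 738 and 328 in Y253A (difference -0.92 ± 0.10, SE; adjusted p = 4.31e-06, limma). The region inside WASF3, an actin regulator, ranked 3217, 4791 and 2773.5 in N278D and 463, 474 and 353 in Y253A (-0.84 ± 0.09, SE; adjusted p = 2.8e-06, limma). A separate TFEB region nearer a gene end, at chr6:41733665-41735316, was also higher in Y253A (-0.39 ± 0.12, SE; adjusted p = 0.0413), with ranks of 20474, 26991 and 13795 in N278D and 10042, 11612 and 12450 in Y253A. That last call was lost in 5 of the 6 fits without a library.

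Other Y253A-higher regions lay inside BMP7, a secreted growth factor, PHACTR1, an actin and phosphatase binder, and PKD2L1, a cation channel. Still others lay outside genes, nearest to SPRED2, an inhibitor of RAS signalling (304384 bp away), DLEU7 (59786 bp), REG4 (11268 bp) and PKDCC (670094 bp). At BMP7 the ranks were 16780.5, 27767.5 and 23423.5 in N278D and 5007, 5841 and 5134 in Y253A. At PHACTR1 they were 23020.5, 18446 and 19990.5 in N278D and 7335, 4323 and 4297 in Y253A. The 10 differences ran from -1.48 to -0.84, and ranks stood apart at each by the rule that chose them.

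Regions higher in N278D included one inside MITF itself, at chr3:69928861-69929463. It ranked 2390, 2179 and 2153 in N278D and 12971, 8688 and 13855 in Y253A (difference 0.85 ± 0.09, SE; adjusted p = 3.91e-06, limma). The best-ranked region within 5000 bp of an end of MITF was not called (adjusted p = 0.408, limma), with mean ranks of 17494 in N278D and 13800 in Y253A.

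Near CFAP161 the ranks were 1444, 1501 and 1276 in N278D and 7483, 9081 and 10342 in Y253A (0.88 ± 0.09, SE; adjusted p = 1.25e-06). Inside KIF6, a kinesin, they were 1973, 2485 and 2903.5 in N278D and 22564, 16685 and 14715 in Y253A (1.10 ± 0.10, SE; adjusted p = 1.34e-07). By the rule that chose them, all N278D ranks were better than all Y253A ranks at these regions. Inside STAU2, an RNA-binding protein of RNA transport, they were 3887, 4174 and 3234 in N278D and 26357, 14908 and 13962 in Y253A. The others lay inside SLC35F1, SH3TC2 and CDH13, an atypical cadherin, or outside genes. Nearest genes of the latter were FIGN, a microtubule-severing enzyme, 298958 bp away, GALNT18 at 59268 bp and CNPY1 at 14033 bp. The 10 differences ran from 0.84 to 1.11.

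**Figure D2:**
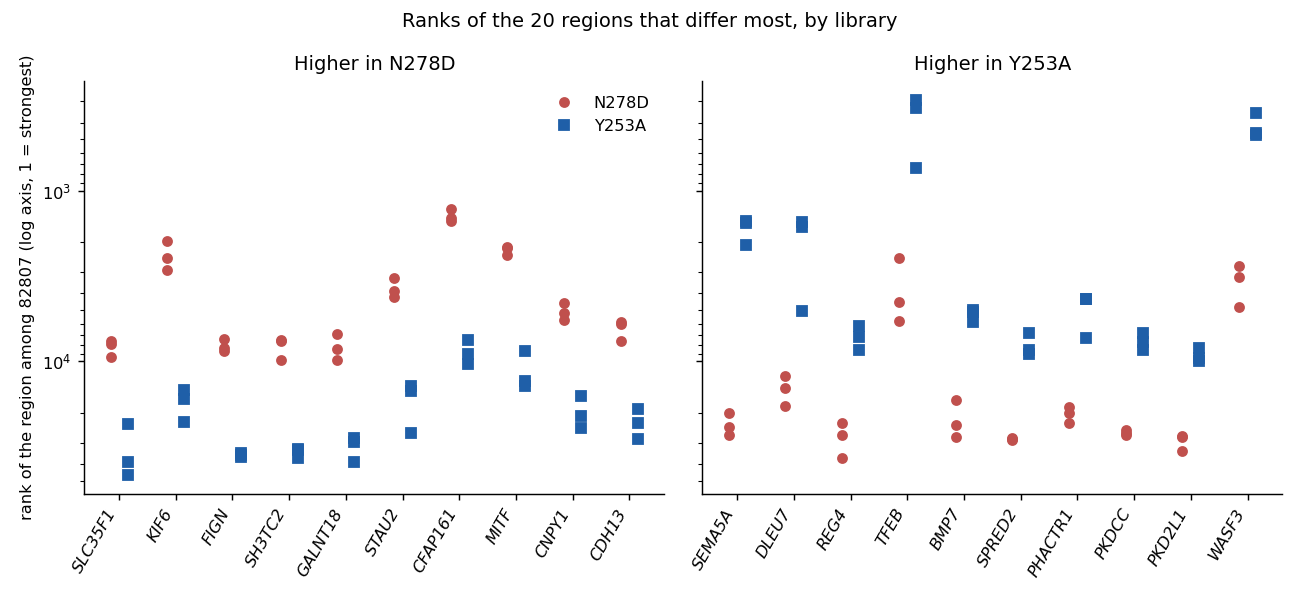
Rank of each of the 20 named regions (x axis, nearest gene) in each library (points) among 82807 regions (y axis, log scale, strongest at the top), for regions higher in N278D (left) and in Y253A (right). Circles for N278D and squares for Y253A stand apart at every region by the rule that chose them, with SEMA5A the widest apart.

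Few of the separating regions lay at gene ends. Of regions higher in N278D 3.83% had a summit within 1000 bp of a gene end, of those higher in Y253A 3.81%, and of all tested regions 14.97%. Among strong regions it was 7.24% of those higher in N278D and 6.58% of those higher in Y253A, against 28.6% of all strong in either variant. Inside a gene lay 51.1% of the regions higher in N278D, 45.2% of those higher in Y253A and 43.5% of all tested. Of the 20 named regions 6 higher in N278D and 6 higher in Y253A were inside a gene, and 0 lay within 1000 bp of an end.

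**Figure D3:**
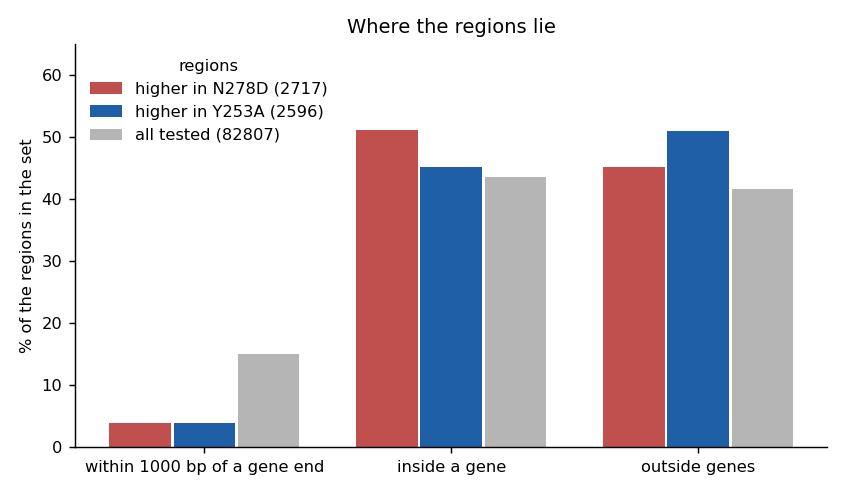
Share of regions (y axis, %) by place of the summit (x axis) for regions higher in N278D, regions higher in Y253A and all tested regions. Both sets of called regions have 3.8% at gene ends, against 14.97% of all tested.

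Promoters with a called summit were few, 39 higher in N278D and 21 higher in Y253A. CACGTG stood in 5 of the 39 (12.8%) and 1 of the 21 (4.76%), against 11.8% of 7068 promoters with a tested summit and 8.87% of 15812 promoters. CATGTG on either strand stood in 3 of the 39 (7.69%) and 3 of the 21 (14.3%), against 6.37% of the 7068. At GADD45B, a stress-response gene, the region ranked 6806, 7735 and 8880 in N278D and 16067, 15397 and 15646 in Y253A (0.44; adjusted p = 0.00624, limma). At RETREG2, a receptor for turnover of the endoplasmic reticulum, it ranked 10808, 10569 and 8289 in N278D and 4928, 6200 and 5605 in Y253A (-0.32; adjusted p = 0.0375, limma). At CCL18, a chemokine, the ranks were 20012, 16786 and 11200 in N278D and 3357, 5700 and 4072 in Y253A (-0.75; adjusted p = 6.27e-05, limma). At TBCEL they were 5891, 3578 and 5056 in N278D and 9818, 8819 and 6961 in Y253A (0.31; adjusted p = 0.0490, limma), just under the threshold. Ranks stood apart at all 4.

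Lists of genes gave almost no calls. A gene was taken at its best region with a summit within 5000 bp of a gene end, and over 15322 protein-coding genes 210 were higher in N278D (1.37%) and 205 in Y253A (1.34%). Called genes numbered 0 of 16 for pigmentation, 0 of 27 for lysosome and autophagy, 0 of 16 for survival, cell cycle and metabolism, 0 of 15 for the invasive state and 0 of 12 for DNA repair and replication. Among 15 lineage regulators only TFEB passed, higher in Y253A. The same held for 0 of 16 housekeeping genes, and of the markers of other cell types for 1 of 8 hepatocyte genes (FGA, higher in N278D, adjusted p = 0.0183, lost without N278D replicate 2 or 3 or Y253A replicate 2), 0 of 6 lymphoid and 0 of 7 keratinocyte genes. Median differences were -0.02 for pigmentation, -0.10 for lysosome and autophagy, 0.06 for lineage regulators and 0.02 for housekeeping, against -0.01 over all genes. They were 0.06 for the invasive state, 0.0004 for survival, cell cycle and metabolism and -0.001 for DNA repair and replication. Markers of other cell types had -0.10 for keratinocyte, -0.06 for lymphoid and -0.05 for hepatocyte genes.

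Counts of strong lysosomal genes depended on how peaks were ranked. A gene counted as strong when a strongest peak had its summit within 5000 bp of an end, which 20.3 ± 0.58 lysosome and autophagy genes met in N278D and 19.7 ± 0.58 in Y253A (SD, n = 3 each; exact permutation p = 0.6). Ranked by fold enrichment it was 6 ± 2 in N278D and 9 ± 1 in Y253A (exact permutation p = 0.2), and over the 5000 strongest peaks 11.3 ± 0.58 in N278D and 13 ± 1.73 in Y253A (exact permutation p = 0.3). Pigmentation gave 11.7 ± 0.58 in N278D and 12 in each Y253A library, and survival, cell cycle and metabolism 10.7 ± 0.58 in N278D and 11 in each Y253A library. LAMP1, a lysosomal membrane protein with repeated CACGTG before its start, was strong in 3 N278D and 0 Y253A libraries. Its ranks were 9305, 6781.5 and 9719 in N278D and 10959, 13721 and 12920 in Y253A, apart but not called (adjusted p = 0.170). NEU1, a lysosomal sialidase, ranked 869, 664 and 967 in N278D and 341, 579 and 615 in Y253A, also apart and not called (adjusted p = 0.253). Ranks stood apart at 17.4% of all genes. They did so at 5 of 27 lysosome and autophagy genes (18.5%), 7 of 15 lineage regulators (46.7%), 1 of 16 pigmentation genes (6.25%), 4 of 16 genes of survival, cell cycle and metabolism (25%), 3 of 15 of the invasive state (20%) and 0 of 12 of DNA repair and replication. Of the comparison lists they did so at 4 of 16 housekeeping (25%), 2 of 8 hepatocyte (25%), 1 of 6 lymphoid (16.7%) and 3 of 7 keratinocyte genes (42.9%). TFE3, another relative of MITF, had mean ranks of 19640 in N278D and 28395 in Y253A (0.31; adjusted p = 0.140, not called).

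**Figure D4:**
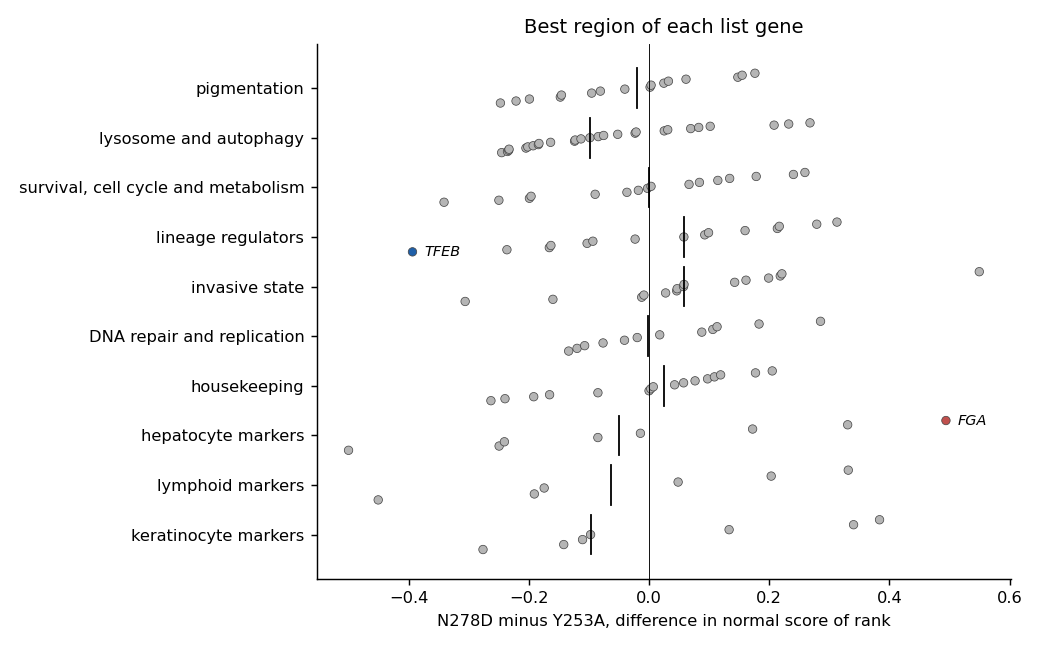
Difference in normal score of rank, N278D minus Y253A (x axis), at the best region of each list gene (points), by list (rows), with the list median as a line. Grey points did not pass; TFEB at -0.39 and FGA at 0.49 did.

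More regions passed for each variant against WT than for the variants against each other. A fit covered the 65743 regions called in all 9 libraries of N278D, Y253A and WT. There 17988 regions passed for N278D against WT (27.4%), 19676 for Y253A against WT (29.9%) and 4139 for N278D against Y253A (6.3%). The median absolute difference was 0.30 for N278D against WT, 0.32 for Y253A against WT and 0.19 for N278D against Y253A. The comparisons share groups, and the difference between these counts was not tested.

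The separating regions had their own standing in the other libraries of the series, given as the median percentile of each library among the 82807 regions (100 the strongest, a region without a peak placed last). Regions higher in N278D stood at 66.1 in WT (mean of 3) and regions higher in Y253A at 47.1. In E260A libraries it was 54.0 for the regions higher in N278D and 73.8 for those higher in Y253A. In Q261A it was 60.4 for the regions higher in N278D and 65.7 for those higher in Y253A, and in A264C it was 65.6 for the regions higher in N278D and 56.4 for those higher in Y253A. In the 2 distinct lists of rep263A it was 65.2 for the regions higher in N278D and 56.2 for those higher in Y253A. Of WT, E260A, Q261A, A264C and rep263A, only E260A and Q261A had regions higher in Y253A above regions higher in N278D. For K243A, G244E and rep217A no median is given, since many of the regions had no peak there. A peak of a K243A list lay on 77.1% to 82.7% of the regions higher in N278D and on 44.3% to 57.2% of those higher in Y253A. For G244E it was 75.4% to 81.4% of the regions higher in N278D and 27.7% to 40.4% of those higher in Y253A. For rep217A it was 79.9% to 81.9% of the regions higher in N278D and 48.9% to 53.4% of those higher in Y253A. Of all tested regions it was 57.3% to 65.8% for K243A, 52.9% to 61.0% for G244E and 61.8% to 64.5% for rep217A. Relative depth was 0.13 to 0.24 in K243A, 0.11 to 0.15 in G244E and 0.28 and 0.35 in rep217A. These depths were below that of every N278D and Y253A library, and the part of depth in these values was not tested.

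Empty lists also held the sets unequally. A peak in a given Empty list lay on 32.8% to 41.8% of the regions higher in N278D, on 9.28% to 13.1% of those higher in Y253A and on 23.4% to 29.5% of all tested. Of the named regions, 8 of 10 higher in N278D and 1 of 10 higher in Y253A had a peak in an Empty list, with a −log10 q of at most 7.6. All 20 had a peak in every WT list. Whether signal present without a variant has a part in the difference was not tested.

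**Figure D5:**
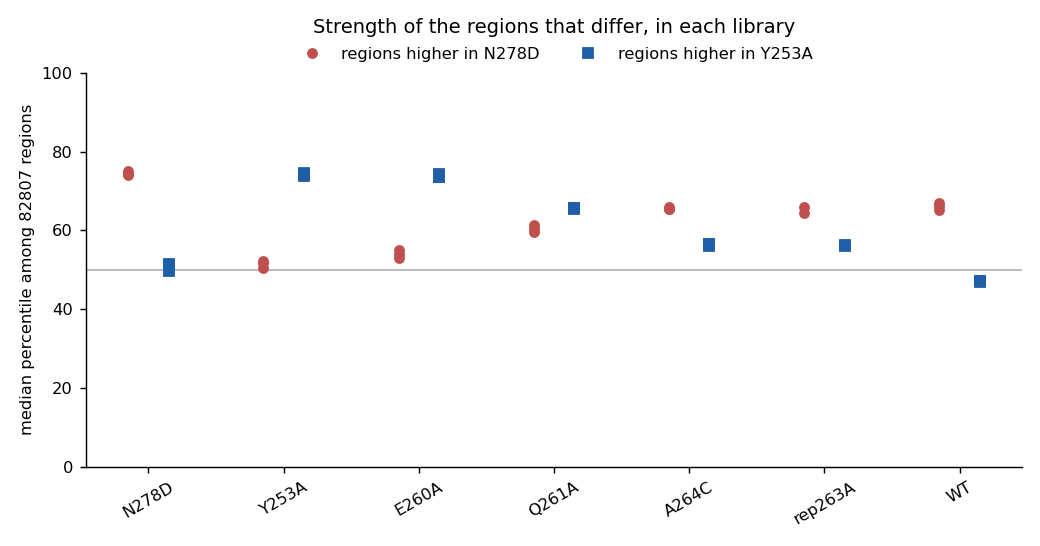
Median percentile (y axis, 0 to 100) of the regions higher in N278D (circles) and higher in Y253A (squares) in each library, for groups whose lists held most of both sets (x axis). In WT the regions higher in N278D stand at 66.1 and those higher in Y253A at 47.1, and in E260A the order is turned round at 54.0 and 73.8.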

How the data were processed

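Peaks had been called with MACS2 separately for every library, with coordinates on hg38. Base calling with bcl2fastq 2.20.0.422 and mapping with Bowtie2 2.3.4.3 are listed among the submitters' processing notes, which give no version of MACS2. The authors deposited for each peak a score, a fold enrichment (ratio), a −log10 p and a −log10 q, and the summit offset. The score was not used. These values are the authors' own and served to rank peaks within a list.

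Only chromosomes 1 to 22 and X entered the analysis. Regions were intervals of the 6 lists merged at overlaps of at least 1 bp. Those called in all 6 lists were ranked again in each library by the best −log10 q, so that ranks come from sets of equal length, and the normal scores were compared with limma 3.58.1 in R 4.3.3. The variance trend was added after the data were seen. The limma step was also run on simulated data. Spread there followed the mean score by construction, so that run cannot decide whether the variance trend suits these data. Restricting the test to regions called in all 6 lists leaves out those that a list lacks. Library values were compared with exact permutation tests (14 measures, smallest main p 0.1, no value adjusted further). The tests were two-sided, except that of overlap within against between variants, which was one-sided. Depth was recovered from the deposited fold and −log10 p, with a tolerance of 0.01. The RefSeq gene table (GRCh38.p14) gives spans without strand, so the planned distance to a gene start became the distance to either gene end. Promoter sequences, from RefSeq, covered 79.2% of protein-coding genes.

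Named regions were the 10 of best mean rank, the 10 of largest difference in each direction among strong regions whose ranks did not overlap, list genes that passed and 12 fixed genes. Not every region so chosen is reported here. Members and gene lists were chosen with earlier results of these data known. Replicates 2 and 3 of rep217A, and of rep263A, had identical lists and were counted as 1 library.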

Additional observations from a re-analysis of the deposited data

How the results depend on the processing

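The main fit called 5313 regions between N278D and Y253A. A separate fit of the 10000 best common regions alone called 861 of 10000 (441 higher in N278D and 420 in Y253A). Ranking by fold called 206 (104 and 102), and the fit without the variance trend 0 (0 and 0). The trend was not in the plan, and both the trend and the fit without it were chosen after seeing the data. Leaving out 1 library gave 3041 to 4845 in all, 1341 to 2107 higher in N278D and 1210 to 2738 higher in Y253A. Deviations of same-numbered libraries correlated at -0.013 to 0.0003, so no shared deviation was seen. These values cannot tell whether same-numbered libraries were made together. With the replicate block 5064 regions passed (2603 higher in N278D and 2461 in Y253A). Ranked by fold, N278D against WT gave 9254 regions (4941 higher in N278D and 4313 in WT) and Y253A against WT gave 10009 (5532 higher in Y253A and 4477 in WT). The 20 separating regions kept their calls in all 6 fits without a library, all 20 lost them without the variance trend and 15 lost them when ranked by fold.

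Signs turned round only at values that had not passed and did not pass afterwards, with the exception of the second TFEB region. Ranked by fold, the difference N278D minus Y253A became -0.078 at TIMP2, 0.0025 at GNA13, 0.23 at BCL2L1, 0.15 at TRPM1, -0.068 at SOX10, -0.041 at BIRC7 and 0.0034 at the TFEB region chr6:41733665-41735316. At DCT it was -0.0015 with a reciprocal overlap of at least 50% and -0.0049 in the fit with WT. Without 1 library the difference ran from -0.0069 to 0.11 at TIMP2, from -0.0098 to 0.069 at NAPA, from -0.11 to 0.072 at DCT, from -0.0046 to 0.13 at TYRP1, from -0.00048 to 0.12 at SOX10 and from -0.060 to 0.0057 at RRAGC. The log2 ratio of peaks with −log10 q of at least 5 was 0.036 after thinning the recovered pileups to a common background of 0.88 and -0.047 to 0.034 without 1 library. The difference in the share near gene ends was 0.51 percentage points over the 5000 strongest peaks and -0.55 to 0.57 without 1 library. The difference in strong genes ranked by fold was 1.67 for pigmentation, -3 for lysosome and autophagy and 0.33 for survival, cell cycle and metabolism. Over the 5000 strongest it was -1.67 for lysosome and autophagy, 0.67 for DNA repair and replication and 0.33 for housekeeping. Over the 20000 strongest it was -1 for lysosome and autophagy and 0.67 for survival, cell cycle and metabolism. The cause of these changes was not tested. EXTL1 passed in the fit with WT and among the 10000 best regions (adjusted p = 0.0287 and 0.0134, limma) and in no other alternative.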
